A study of Mus musculus and Homo sapiens with 8 samples.

Results

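The mitochondrial respiratory chain is described here through 72 genes, 13 encoded by mitochondrial DNA and 59 by nuclear DNA, in cells depleted of ANP32B, an acidic leucine-rich nuclear protein with histone chaperone activity. They were chosen by name: the 13 mitochondrial protein genes as the tables write them (ND1 to ND6, ND4L, CYTB, COX1, COX2, COX3, ATP6 and ATP8), and the nuclear symbols of subunits of complexes I to IV (the NDUF, SDH and UQCR families and 10 widely expressed COX genes), ignoring case. The 8 count tables together hold 26538 distinct symbols. The mouse tables hold 71 of the 72 genes among 17097 listed genes, and 70 of 20296 genes listed for human cells are members, and 69 are in both. Ndufa3 and Ndufa6 matched in mouse alone and NDUFB1 in human alone. Every listed member passed the filter on low counts in its own experiment.

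Messenger RNA was measured by RNA sequencing of total RNA in 2 experiments with 2 libraries per group. The mouse cells were bone marrow LSK cells, a population negative for lineage markers and positive for Sca-1 and c-Kit that includes stem cells and multipotent progenitors. They were knocked out for Anp32b (KO) or wild type (WT), both on C57BL/6. The human cells were KU812, an established chronic myelogenous leukemia line with basophil features, carrying a short hairpin RNA against ANP32B (shANP32B) or a control hairpin (shNC). The sources used here do not give the age and sex of the mice, the deleted part of Anp32b, any driver of the deletion, the hairpin sequence or the time after infection. They also do not say whether replicates were separate animals or cultures. The p-values therefore measure library-to-library spread, which may be technical.

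Complexes I, II, III and IV pass electrons from NADH and succinate to oxygen, and complexes I, III and IV pump protons whose return drives ATP synthase. Mitochondrial DNA encodes core subunits of complexes I, III and IV and of ATP synthase. Its RNAs are cut from long transcripts that read most of the circle, so they are made together, while the nuclear subunits, complex II as a whole among them, are transcribed from separate genes and imported as proteins. Quiescent blood stem cells are known to rely little on respiration, and their progeny to raise it.

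Mouse nuclear DNA carries old copies of mitochondrial sequence, and they bear on which mouse genes can be read. A row of 7 unprocessed pseudogenes on the minus strand of GRCm38 chromosome 1 (GENCODE annotation), between 24611535 and 24616197, copies the stretch from the end of COX1 to the middle of ND4. The aligned parts are identical in 5 of the 7 and differ at 1 base each in the copies of ND3 and COX1. The sequences below are 60 bases of a mitochondrial gene and of its chromosome 1 copy, shown because a read from either can hardly be told from the other. They are read 5′ to 3′ on the strand given, from GRCm38, with differing bases in capitals.
mt-Nd3 (ND3), chrM:9459-9518, plus strand: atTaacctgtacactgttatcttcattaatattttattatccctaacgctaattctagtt
Gm28438, chr1:24613060-24613119, minus strand: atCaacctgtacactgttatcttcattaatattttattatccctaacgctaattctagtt
mt-Co1 (COX1), chrM:6390-6449, plus strand: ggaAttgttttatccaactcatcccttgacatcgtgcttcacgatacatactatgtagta
Gm29216, chr1:24616129-24616188, minus strand: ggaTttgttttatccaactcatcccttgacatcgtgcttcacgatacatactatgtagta
mt-Co2 (COX2), chrM:7013-7072, plus strand: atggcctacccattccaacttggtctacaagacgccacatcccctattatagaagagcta
Gm28661, chr1:24615506-24615565, minus strand: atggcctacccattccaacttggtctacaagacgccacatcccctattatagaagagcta
mt-Atp6 (ATP6), chrM:7927-7986, plus strand: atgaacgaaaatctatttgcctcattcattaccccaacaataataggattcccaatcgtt
Gm10925, chr1:24614592-24614651, minus strand: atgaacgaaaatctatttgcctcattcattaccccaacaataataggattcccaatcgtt

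Counted from 1 at the first base of the mitochondrial gene, the differences in the aligned parts are T3C in ND3 and A1066T in COX1, the mitochondrial base first. Of all 100-base windows of a mitochondrial gene, the share with an exact copy in a nuclear GENCODE transcript was 99.9% for COX3, 99.5% for both COX2 and ATP6, 98.5% for ND4L and 97.6% for ND3. The same share was 60.8% for ND4, 30.8% for COX1 and 3.20% for ND2, and 0% for ND1, ND5, CYTB, ATP8 and ND6. Only annotated nuclear transcripts were searched, and on chromosome 1 the stretch opposite most of ATP8 lies between the annotated copies Gm10925 and Gm28661. The 5 genes copied nearly whole were read at low levels in LSK cells. Per kilobase of gene, COX2 stood at 31.6 CPM (read counts scaled to library size) in KO and 72.7 CPM in WT cells, and COX3 at 20.4 CPM in KO and 38.6 CPM in WT cells. CYTB, with no such copy, stood at 3226 CPM per kilobase in KO and 4512 CPM in WT cells. ND6 and ATP8, also with no such copy, were low too, at 34.1 and 53.3 CPM per kilobase in KO and 33.4 and 79.3 CPM in WT cells. In CPM not divided by gene length, COX2, COX3 and ATP6 stood at 67.3 CPM or less in every LSK library. In human KU812 cells they stood at 1663 CPM or more in every library. Human nuclear copies were not searched by sequence, and the human tables list 17 named copies. Of 14 nuclear genes that share at least 50 bases with a mitochondrial gene, the mouse tables list 1, the ND4L copy Gm10222, with 15.2 and 13.1 CPM in KO and 20.2 and 10.7 CPM in WT cells. The sources used here do not state how reads shared between places in the genome were counted, and the part of such reads in these levels was not tested. The 5 copied genes are therefore given apart from the 6 mitochondrial genes that exceeded 1000 CPM in every LSK library.

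**Figure D1:**
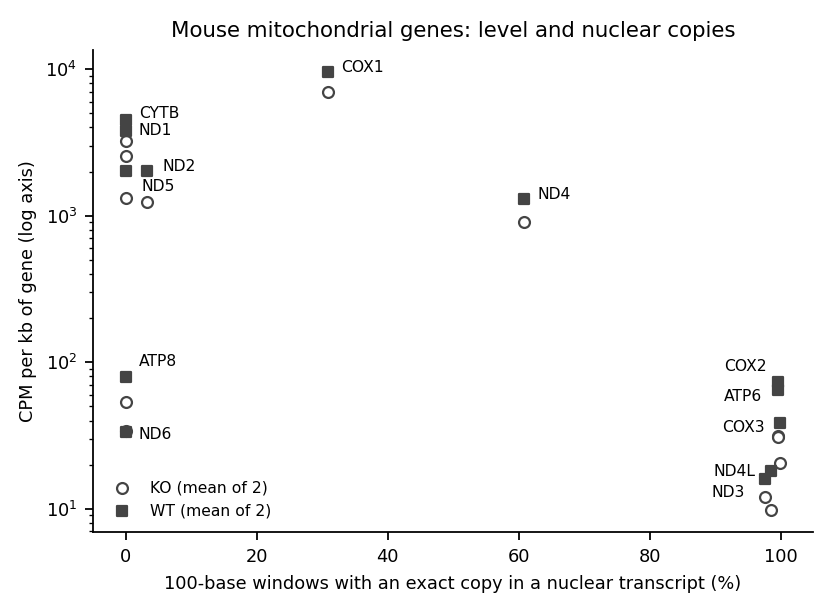
Each of the 13 mouse mitochondrial protein genes has an open circle for its KO mean and a filled square for its WT mean (2 libraries each; they coincide for ND6). The horizontal axis is the share of its 100-base windows with an exact copy in a nuclear transcript (percent), and the vertical axis its level (CPM per kilobase, log axis). The 5 genes with shares from 97.6% to 99.9% lie at the low end, together with ATP8 and ND6, which have no such window.

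The LSK libraries held between 10549358 and 15683480 counts and the KU812 libraries between 24416691 and 28209409, and 3 counts stand for 0.191 to 0.284 CPM in LSK and 0.106 to 0.123 CPM in KU812 libraries. Anp32b stood at 201 and 249 CPM in KO and 794 and 730 CPM in WT cells, and ANP32B at 40.4 and 38.2 CPM in shANP32B and 250 and 286 CPM in shNC cells. The gate markers were present, with Kit at 377 ± 31.0 CPM in KO and 353 ± 26.2 CPM in WT cells and Ly6a, which encodes Sca-1, at 40.6 ± 3.94 CPM in KO and 52.9 ± 10.4 CPM in WT cells. KU812 cells carried HDC, a histamine-synthesis gene of basophils, at 1175 ± 60.7 CPM with shANP32B and 1174 ± 116 CPM with shNC (SD, n = 2 each). Other genes of the 11 on the list of basophil and leukemia features were not level: EPX (-4.48), CLC (-2.69) and PRG2 (-1.48), of eosinophil and basophil granules, fell on the log2 scale, and the mast cell protease gene CPA3 rose (1.06). The first WT library stood apart: the 18S ribosomal RNA gene Rn18s-rs5 was at 5024 and 2953 CPM in the KO libraries, against 302 CPM in the first and 8563 CPM in the second WT library. The KO pair differed by a chi-square of 7.70 per degree of freedom over genes and the WT pair by 47.7. The shANP32B pair differed by 9.74 and the shNC pair by 19.6, so no pair agreed within sampling noise.

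In LSK cells the mitochondrial class was lower without Anp32b and the nuclear class was not. The 13 mitochondrial genes summed to 21009 and 22786 CPM in the KO libraries, against 31362 and 31266 CPM in the WT libraries. Both KO sums lay below both WT sums, and their means, 21898 ± 1257 CPM in KO and 31314 ± 67.9 CPM in WT cells (SD, n = 2 each), differed by -30.1%. The nuclear genes summed to 4384 and 4825 CPM in KO and 4548 and 4558 CPM in WT cells, groups that overlap, with means that differed by 1.14%. The ratio of the mitochondrial to the nuclear sum was 4.79 and 4.72 in KO and 6.90 and 6.86 in WT cells, a log2 difference of -0.53. With 2 libraries against 2, no exact permutation test of a sum can pass 0.05, so the sums are given without a test. In bulk RNA, fewer cells of a type and less RNA per cell cannot be told apart.

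In KU812 cells the mitochondrial class lay the other way. It summed to 44892 and 45070 CPM with shANP32B, against 30749 and 39339 CPM with shNC, and both knockdown sums lay above both control sums. The means were 44981 ± 126 CPM with shANP32B and 35044 ± 6074 CPM with shNC (SD, n = 2 each), a difference of 28.4%, and the spread lay in the shNC pair. The nuclear class summed to 3637 and 3604 CPM with shANP32B and to 3499 and 3850 CPM with shNC, groups that overlap. The ratio of the sums was 12.3 and 12.5 with shANP32B and 8.79 and 10.2 with shNC, a log2 difference of 0.39. COX1, the catalytic subunit of complex IV, made up 48.97% and 48.86% of the mitochondrial sum in KO and 43.7% and 50.6% in WT cells. It made up 31.2% and 30.7% with shANP32B and 34.8% and 30.4% with shNC, so the sums do not rest on COX1 alone.

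**Figure D2:**
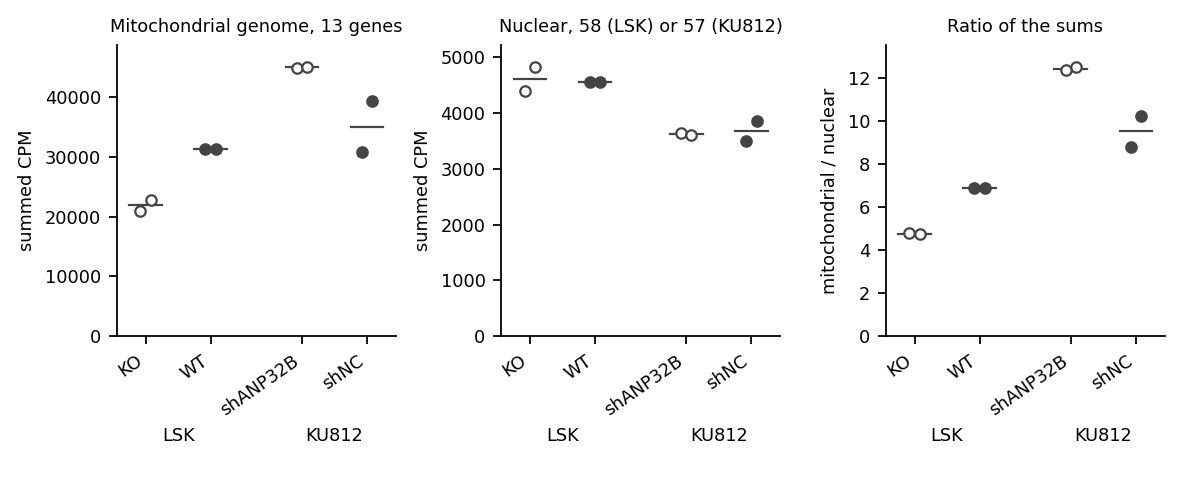
Summed level of the mitochondrial class (CPM, left), of the nuclear class (CPM, middle) and their ratio (right) in each library. Points are libraries, open for KO and shANP32B and filled for WT and shNC, and lines are group means. The mitochondrial sums are below WT in both KO libraries and above shNC in both shANP32B libraries, while the nuclear sums overlap in both experiments.

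Gene by gene, no respiratory chain gene passed in the LSK comparison (quasi-likelihood test of edgeR, Benjamini-Hochberg adjusted over all genes, threshold 0.05). This was so of 0 of 14598 genes tested (0%). An unadjusted p under 0.05 was found for 657 of them (4.5%), 322 with lower values in KO (2.21%) and 335 with higher ones (2.29%). DESeq2, the other tool run, called 15 genes in all. Of the 13 mitochondrial genes, 9 had an unadjusted p under 0.05, all lower in KO, and 12 of 13 log2 fold changes were negative. Both KO libraries were below both WT libraries in 10 of the 13, against 15.6% of all genes tested. The median log2 fold change was -0.59 (range -1.21 to 0.045), against -0.0079 over all genes tested.

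Complex I takes 7 subunits from mitochondrial DNA. ND5, a proton-pumping subunit of its membrane arm, was read at 2325 and 2509 CPM in KO and 3966 and 3400 CPM in WT cells. ND1, which helps to form the quinone channel, stood at 2368 and 2527 CPM in KO and 3768 and 3521 CPM in WT cells. Neither gene's groups overlap, with log2 fold changes of -0.61 ± 0.18 for ND5 and -0.57 ± 0.17 for ND1 (SE). ND2, another pumping subunit, stood at 1211 and 1351 CPM in KO and 2479 and 1737 CPM in WT cells, and its WT libraries lay far apart (log2 fold change -0.72 ± 0.21). ND4, the third such subunit, was at 1190 and 1323 CPM in KO and 1892 and 1679 CPM in WT cells (-0.51 ± 0.17). CYTB, the core of complex III, was at 3536 and 3846 CPM in KO and 5320 and 5004 CPM in WT cells (-0.48 ± 0.17), and COX1 at 10288 and 11134 CPM in KO and 13719 and 15808 CPM in WT cells (-0.46 ± 0.18). These 6 genes, each over 1000 CPM in every LSK library, lay within -0.72 and -0.46 on the log2 scale, with adjusted p of 0.986 (edgeR). Without the first WT library they lay within -0.56 and -0.42 (adjusted p from 0.118 to 0.306), so the lower level was also seen against the second WT library alone, though none of them passed. Without the second WT library they lay within -0.96 and -0.36. In both of these fits the lone WT library was assumed to vary like the KO pair.

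The 5 copied genes rested on the first WT library. COX2, the subunit that takes electrons from cytochrome c, was read at 20.9 and 22.3 CPM in KO and 67.3 and 32.3 CPM in WT cells (log2 fold change -1.21 ± 0.31). ATP6, the proton channel subunit of ATP synthase, stood at 20.0 and 21.9 CPM in KO and 65.2 and 23.4 CPM in WT cells (-1.09 ± 0.41). COX3, the remaining core subunit of complex IV from this genome, stood at 14.2 and 17.8 CPM in KO and 41.8 and 18.7 CPM in WT cells (-0.92 ± 0.35). In each of the 3 the first WT library was at least 2 times the second, and the second lay near the KO pair for ATP6 and COX3. ND4L, a small complex I subunit, had 23 and 56 counts in KO and 124 and 27 in WT cells, and ND3, also of complex I, 52 and 59 counts in KO and 103 and 45 in WT cells. The 5 genes summed to 61.2 and 70.0 CPM in KO and 189 and 81.2 CPM in WT cells. Their median log2 fold change was -0.92 with all libraries, -0.16 without the first WT library and -1.48 without the second. Outside these 5, ATP8, a small subunit of ATP synthase, stood at 11.4 and 10.3 CPM in KO and 22.6 and 9.73 CPM in WT cells. ND6, the complex I subunit read from the opposite strand of mitochondrial DNA, stood at 19.4 and 15.9 CPM in KO and 7.67 and 27.0 CPM in WT cells. The groups overlap in both, and in ND6 the first WT library was the lowest of the 4 where it was the highest in the copied genes.

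**Figure D3:**
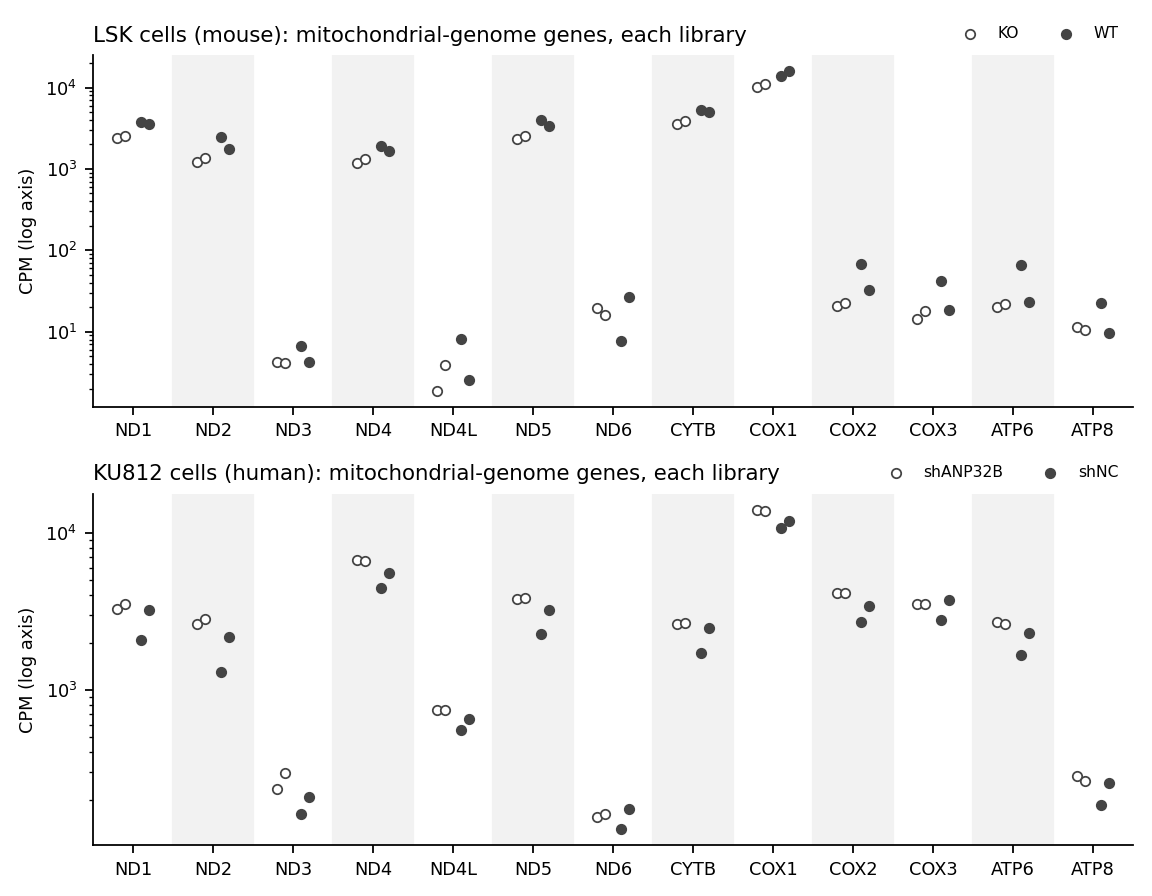
Level of each mitochondrial-genome gene in each library (CPM, log axis), mouse LSK cells above and human KU812 cells below. Open points are KO or shANP32B libraries and filled points WT or shNC libraries. In LSK cells 6 genes lie above 1000 CPM, with both KO points under both WT points, and the other 7 lie under 100 CPM; in KU812 cells 11 of 13 genes have both shANP32B points above both shNC points.

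In KU812 cells 7 of the 13 mitochondrial genes rose with shANP32B and 0 fell (edgeR, adjusted p under 0.05). Over all genes 2741 of 16529 passed (16.6%), 1244 higher (7.53%) and 1497 lower (9.06%). An unadjusted p under 0.05 was found for 11 of the 13, and for 30.5% of all genes. Both shANP32B libraries were above both shNC libraries in 11 of the 13, against 29.5% of all genes tested. The median log2 fold change was 0.35 (range 0.062 to 0.65), against 0.0041 over all genes tested. The rises were modest in size and spread over complexes I (4 of 7), IV (2 of 3) and ATP synthase (1 of 2).

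ND4 was read at 6710 and 6652 CPM with shANP32B and 4486 and 5575 CPM with shNC, a log2 fold change of 0.41 ± 0.09 (SE, adjusted p = 0.00963, edgeR). ND2 stood at 2615 and 2811 CPM with shANP32B and 1309 and 2158 CPM with shNC (0.65 ± 0.16, adjusted p = 0.0149, edgeR). The knockdown libraries were close to each other in both, while the first shNC library was well under the second. ND5, at 3805 and 3826 CPM with shANP32B and 2264 and 3218 CPM with shNC, had a log2 fold change of 0.48 ± 0.12 (adjusted p = 0.0184, edgeR). ND3, at 234 and 294 CPM with shANP32B and 163 and 209 CPM with shNC, had 0.50 ± 0.14 (adjusted p = 0.0246, edgeR). Both complex IV genes that rose showed the same picture of a close knockdown pair above a wider control pair. COX2 stood at 4152 and 4147 CPM with shANP32B and 2702 and 3398 CPM with shNC (0.44 ± 0.10, adjusted p = 0.00843, edgeR). COX1 stood at 14022 and 13826 CPM with shANP32B and 10715 and 11940 CPM with shNC (0.30 ± 0.07, adjusted p = 0.0132, edgeR). ATP6 of ATP synthase rose as well, with 2698 and 2626 CPM with shANP32B and 1663 and 2312 CPM with shNC (0.42 ± 0.12, adjusted p = 0.0301, edgeR).

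The other 6 mitochondrial genes had positive log2 fold changes that did not pass. They were 0.30 for ND4L, 0.34 for CYTB, 0.35 for ND1 and 0.32 for ATP8, whose groups did not overlap, and their adjusted p lay between 0.0598 and 0.129 (edgeR). COX3 stood at 3543 and 3515 CPM with shANP32B and 2770 and 3715 CPM with shNC, and ND6 at 155 and 161 CPM with shANP32B and 130 and 173 CPM with shNC. Both groups overlap there, with log2 fold changes of 0.12 and 0.062. The size of the mitochondrial rise depended on the shNC library it was set against: the median was 0.20 without the first shNC library and 0.61 without the second. Without the first shNC library the log2 fold change was 0.32 for ND2, 0.33 for ND3, 0.26 for ND4, 0.24 for ND5, 0.28 for COX2 and 0.20 for ATP6, and without the second it was 1.04 for ND2, 0.74 for ND5 and 0.67 for ATP6. ND3 lost its call without the second shANP32B library (0.31, adjusted p = 0.297, edgeR), and ND2 with DESeq2 in place of edgeR (adjusted p = 0.226).

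Nuclear subunits were as a class level in both experiments. In LSK cells 0 of the 58 passed, and the median log2 fold change was 0.0097, with a range from -0.22 to 0.42. Both KO libraries were above both WT libraries in 8 of the 58, where 17.7% of all genes tested did so, and below them in 6. In KU812 cells 1 of the 57 rose and 1 fell, where 16.6% of all genes tested passed, and the median was 0.0016, with a range from -0.59 to 1.17. Both shANP32B libraries were above both shNC libraries in 16 of the 57 and below them in 16, where 29.5% of all genes tested were above and 28.9% below.

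**Figure D4:**
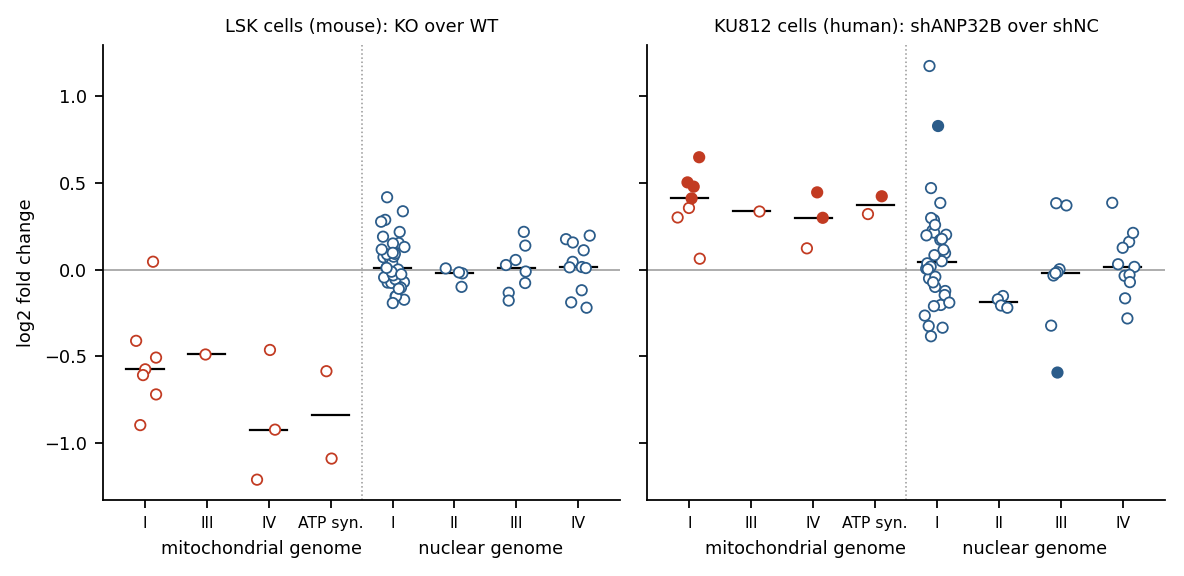
Log2 fold change of each member by complex, mitochondrial-genome and nuclear members apart, in LSK cells (KO over WT) and KU812 cells (shANP32B over shNC). Each point is 1 gene, filled where the adjusted p is under 0.05, and each line is a median. Nuclear medians lie between -0.19 and 0.042 in every complex, and mitochondrial medians between -0.92 and -0.48 in LSK cells and between 0.30 and 0.41 in KU812 cells. The -0.92 is mitochondrial complex IV in LSK cells, which holds COX2 and COX3, copied nearly whole in mouse nuclear DNA.

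In nuclear complex I the LSK median was 0.010 over 35 genes. The 1 nuclear member with an unadjusted p under 0.05 was Ndufa6, an accessory subunit, with 64.7 and 74.7 CPM in KO and 45.0 and 59.8 CPM in WT cells (log2 fold change 0.42, adjusted p = 0.986, edgeR). Ndufc2, an accessory subunit of the membrane arm, had 0.28, and Ndufv2, an iron-sulfur subunit of the NADH-oxidizing end, had -0.19. Ndufa10, an accessory subunit with high read counts, stood at -0.075. In KU812 cells the median was 0.042 over 34 genes, and NDUFC2 rose, with 22.4 and 24.4 CPM with shANP32B and 10.9 and 15.5 CPM with shNC (0.83 ± 0.19, adjusted p = 0.011, edgeR). Its call was lost without the second shANP32B library (0.75, adjusted p = 0.056, edgeR). NDUFS6 and NDUFA13 came next with 0.47 and 0.29 (adjusted p of 0.0568 and 0.122, edgeR), while NDUFV1, which binds the flavin that takes electrons from NADH, had 0.0015, and NDUFB9 had -0.15. NDUFS1, an iron-sulfur core subunit picked out here after its values were seen, was read at 2.78 and 2.22 CPM with shANP32B and 0.644 and 1.59 CPM with shNC. These KU812 levels rest on 72 and 55 counts with shANP32B and 18 and 39 counts with shNC (1.17, adjusted p = 0.127, edgeR). In LSK cells Ndufs1 was read at 82.5 and 84.6 CPM in KO and 87.1 and 83.9 CPM in WT cells.

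Complex II, which is wholly nuclear and joins the chain to the citric acid cycle, moved little. Its LSK values lay between -0.10 for Sdhd, a membrane anchor, and 0.0064 for Sdha, the flavoprotein, with overlapping groups in all 4 genes. In KU812 cells all 4 were lower in both shANP32B libraries, and none passed. SDHA stood at 120 and 110 CPM with shANP32B and 124 and 132 CPM with shNC (-0.15), and SDHD at 118 and 108 CPM with shANP32B and 129 and 134 CPM with shNC (-0.22). SDHB, the iron-sulfur subunit, had -0.17 and SDHC, the other anchor, -0.21, and the 4 adjusted p lay between 0.202 and 0.395 (edgeR).

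Complex III held the 1 nuclear member that fell in KU812 cells. UQCR11, a small accessory subunit, stood at 40.3 and 42.5 CPM with shANP32B and 56.4 and 68.6 CPM with shNC (-0.59 ± 0.14, adjusted p = 0.0102, edgeR), a call lost without the first shANP32B library (-0.56, adjusted p = 0.0658, edgeR). UQCRC2, a core subunit, had -0.32 and UQCR10, a small subunit, 0.37, neither past the threshold, while the abundant UQCRH and UQCRC1 had -0.021 and -0.015. In LSK cells Uqcrb had -0.18, Uqcrfs1, the Rieske iron-sulfur protein, 0.14 and Uqcr10 -0.13, and the core genes Uqcrc1 and Uqcrc2 had 0.026 and -0.078. The nuclear subunits of complex IV passed in neither experiment. In LSK cells Cox6b1 had -0.22, Cox5a 0.17 and Cox8a 0.20, and Cox4i1, the regulatory subunit IV, 0.044. In KU812 cells NDUFA4, counted here with complex IV, had 0.38 (adjusted p = 0.0647, edgeR), COX7C -0.28, COX7A2 -0.17, COX8A 0.13 and COX4I1 0.030. Beside them the 3 mitochondrial members of complex IV had medians of -0.92 in LSK and 0.30 in KU812 cells. The LSK median is the value of COX3, which like COX2 is a gene copied nearly whole. COX3 had -0.22 without the first WT library, and COX1 had -0.46 with all libraries.

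The difference between the experiments was tested gene by gene in 1 model over all 8 libraries, as the change with shANP32B minus the change with Anp32b knockout. Of 10771 shared genes tested, 239 passed (2.22%), 96 with a higher change in KU812 cells (0.891%) and 143 with a lower one (1.33%). Of the 13 mitochondrial genes 2 passed, COX2 with a difference of 1.67 ± 0.37 on the log2 scale (adjusted p = 0.0461, edgeR) and ND5 with 1.10 ± 0.25 (adjusted p = 0.0476, edgeR). ND2 and ND4 came next at 1.38 ± 0.32 and 0.93 ± 0.22 (adjusted p of 0.051 and 0.0552, edgeR). The median difference was 0.95 over the 13 mitochondrial genes and -0.026 over the 56 shared nuclear genes, of which 0 passed and the lowest adjusted p was 0.108. In 9 of the 13 mitochondrial genes both KO libraries were below both WT libraries and both shANP32B libraries above both shNC libraries, and NDUFB8 was the 1 nuclear gene of this kind. Over all genes tested, 15.6% were lower in this way in LSK cells and 29.5% higher in KU812 cells. The share of shared genes with both was not counted. COX2 is among the mouse genes copied nearly whole, and its difference was 1.05 without the first WT library. Both calls were lost without either KO library, without the first shNC library or without either shANP32B library, where the adjusted p lay between 0.122 and 0.188 (edgeR), and COX2 also without the second shNC library. The experiments differ in species, cell type and means of removing ANP32B, which cannot be told apart.

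**Figure D5:**
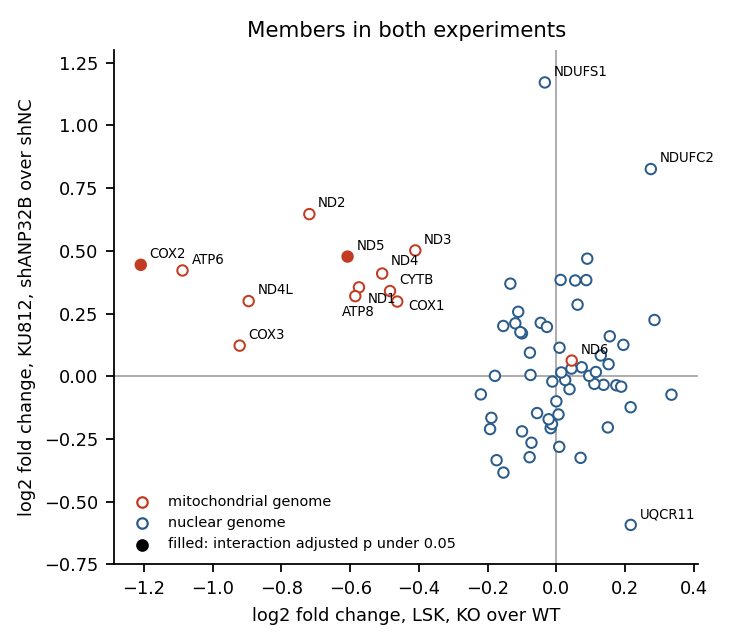
Each point is 1 of the 69 members measured in both experiments, with its log2 fold change in LSK cells (KO over WT, horizontal) and in KU812 cells (shANP32B over shNC, vertical). Of the mitochondrial genes 12 lie at upper left, with negative LSK and positive KU812 values, and ND6 lies near the origin; nuclear genes gather around the origin. Filled points are COX2 and ND5, the 2 members that passed the test of the difference.

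Genes that serve the chain without belonging to it were read from 11 lists. In LSK cells none of their genes passed, and the list medians lay between -0.13 and 0.081. The lists of nuclear copies and of mitochondrial ribosomal and transfer RNAs held 0 genes in the mouse tables and have no LSK median. The KU812 counts that follow stand beside 7.53% of all genes tested that rose and 9.06% that fell, and a share near these says nothing particular of a list. In KU812 cells the nuclear ATP synthase subunits gave 0 calls among 16 (median 0.047) and the mitochondrial ribosomal proteins 1 among 75, MRPS11, which rose by 0.58 on the log2 scale (list median -0.0056). Of 22 genes for upkeep and transcription of mitochondrial DNA 2 fell and 0 rose. TFAM, which packages mitochondrial DNA and starts its transcription, stood at 58.2 and 59.3 CPM with shANP32B and 79.8 and 86.6 CPM with shNC (-0.50 ± 0.12, adjusted p = 0.0122, edgeR). The nuclease gene DNA2 also fell (-0.50). Of 32 genes of mitochondrial RNA processing, stability and translation 1 rose and 2 fell. LRPPRC, which stabilizes mitochondrial messenger RNAs, stood at 243 and 257 CPM with shANP32B and 405 and 410 CPM with shNC (-0.71 ± 0.10, adjusted p = 4.50e-04, edgeR). The protease gene LONP1 fell by 0.36 on the log2 scale, and HSD17B10, a subunit of mitochondrial RNase P, rose (0.65). TFAM and LRPPRC fell, and HSD17B10 rose, in the same libraries in which mitochondrial messenger RNAs rose. A link between these changes was not tested.

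Of 44 assembly factors measured in KU812 cells 2 rose and 2 fell, among them HIGD1A (0.74) and COX20 (0.68), both complex IV factors, higher and COA1 (-0.49) lower. A further list held 7 chain genes outside the naming rule, alternative subunits among them. There NDUFA4L2, a hypoxia-induced relative of NDUFA4, fell to 0.463 and 1.61 CPM with shANP32B, against 11.7 and 10.7 CPM with shNC (-3.43 ± 0.41, adjusted p = 1.37e-04, edgeR). Of 11 regulators of mitochondrial biogenesis, MYC (-0.82) and GABPB1 (-0.45) fell, and 2 rose, among them ESRRB (2.18), read at only 1.85 and 2.18 CPM with shANP32B and 0.393 and 0.488 CPM with shNC. Of 21 genes of import, dynamics and the outer membrane 4 fell and 0 rose, with the citrate synthase gene CS at -0.66, the fusion gene OPA1 at -0.50 and VDAC2 at -0.39. Of 10 mitophagy genes BNIP3 (-1.15) and BNIP3L (-0.35), both hypoxia-induced receptors, fell and PINK1, a kinase that marks damaged mitochondria, rose (0.63).

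The human tables also name mitochondrial ribosomal and transfer RNAs and nuclear copies of mitochondrial sequence. Of 12 ribosomal and transfer RNA genes tested 2 rose and 0 fell, with a median of 0.58. RNR1, the small ribosomal RNA, stood at 51.5 and 54.1 CPM with shANP32B and 22.5 and 30.9 CPM with shNC (0.98 ± 0.16, adjusted p = 0.00118, edgeR). RNR2, the large ribosomal RNA, had 0.51 ± 0.16 (adjusted p = 0.0495, edgeR). Of 9 nuclear copies tested 2 rose, MTND2P28 (0.59) and MTATP6P1 (0.42), and the median was 0.31. For MTATP6P1 the levels were 466 and 462 CPM with shANP32B and 295 and 397 CPM with shNC, the same order of libraries as in ATP6. How reads shared by a mitochondrial gene and its nuclear copy were counted is not given for these tables either.

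Genes on lists of cell types moved beside the LSK result. Of 14 neutrophil and monocyte genes 13 had negative log2 fold changes and 10 were below both WT libraries in both KO libraries. The list, which includes Mpo and Elane, was not split into genes of mature cells and of progenitors. Of all 14598 genes tested 7500 were negative and 15.6% lay below in this way. The neutrophil and monocyte list summed to 4822 and 6153 CPM in KO and 8551 and 6725 CPM in WT cells. Most of that sum was Mpo, at 3102 and 4129 CPM in KO and 6037 and 4492 CPM in WT cells. Stromal and endothelial markers summed to 954 and 850 CPM in KO and 1392 and 1055 CPM in WT cells (7 of 7 tested negative). Most of that sum was Vim, at 803 and 716 CPM in KO and 1187 and 883 CPM in WT cells. VIM was also read in the KU812 line, at 221 and 214 CPM with shANP32B and 238 and 165 CPM with shNC. Of 9 T and NK cell markers 7 were negative (median -0.66), with sums of 101 and 132 CPM in KO and 146 and 106 CPM in WT cells. Nkg7, whose groups overlap, made up most of these sums. Of 10 erythroid markers 7 were positive (median 0.21), with sums of 201 and 244 CPM in KO and 237 and 233 CPM in WT cells. Most of that sum was the transferrin receptor gene Tfrc, at 131 and 139 CPM in KO and 173 and 155 CPM in WT cells. Gata1, an erythroid transcription factor gene, stood at 22.1 and 29.4 CPM in KO and 16.6 and 19.4 CPM in WT cells. Of 5 B and plasma cell markers tested 3 were negative. Of 7 megakaryocyte and platelet markers 4 were negative, between -0.22 and -0.088. The other 3 were positive, Gp1ba (0.88), Ppbp (0.84) and Gp1bb (0.71), each at 8.95 CPM or less in every LSK library. In these 3 both KO libraries were above both WT libraries, as in 17.7% of all genes tested. Of all genes tested in KU812 cells 7.53% rose and 9.06% fell. Of 9 erythroid markers there 5 fell and 0 rose, and their sum was 3152 and 3304 CPM with shANP32B and 4686 and 5126 CPM with shNC. Most of this sum too was TFRC, at 2444 and 2638 CPM with shANP32B and 3837 and 4186 CPM with shNC. Of 8 neutrophil and monocyte markers tested there 3 rose and 0 fell, namely S100A8 (2.54), S100A9 (2.31) and MMP9 (1.87), as log2 fold changes. All 3 were read at low levels. S100A8 stood at 7.10 and 6.33 CPM with shANP32B and 0.930 and 1.38 CPM with shNC. S100A9 stood at 4.01 and 3.03 CPM with shANP32B and 0.644 and 0.773 CPM with shNC. MMP9 stood at 2.82 and 2.14 CPM with shANP32B and 0.966 and 0.366 CPM with shNC. The list summed to 103 and 80.2 CPM with shANP32B and 102 and 81.2 CPM with shNC. Of 7 stromal and endothelial markers 2 rose, KDR (1.67) and COL3A1 (2.98), and the stem cell marker CD34 (-1.83) and CD48 (-1.62) fell. COL3A1 stood at only 0.540 and 1.05 CPM with shANP32B and 0.0358 and 0.163 CPM with shNC. Its level in the first shNC library was under 3 counts. GP1BA (1.32) rose and PPBP (-1.83) fell among 6 platelet markers, and NKG7 (-2.94) fell among 5 of T and NK cells. NKG7 was read at only 0.154 and 0.242 CPM with shANP32B and 1.07 and 2.03 CPM with shNC. The part of these cell types in the mitochondrial levels was not tested.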

How the data were processed

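The deposited tables, 1 per library, give raw counts by gene symbol (whole numbers, from the values; no scaling is named in the file headers). No listed gene has fewer than 10 counts summed over its experiment. Total RNA was extracted with Trizol, per the labels' protocols. HISAT2, TopHat, Cufflinks, DESeq, GRCm38 and GRCh38 are named in the submitters' processing notes, without roles or versions. The sources used here name no counting tool, strand setting or treatment of shared reads, so reads of overlapping or antisense genes cannot be told apart.

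The LSK and the KU812 libraries were fitted separately in edgeR 4.0.16 under R 4.3.3 (filterByExpr, TMM scaling, quasi-likelihood test, two-sided, Benjamini-Hochberg over all genes tested, threshold 0.05). DESeq2 1.42.0 was an alternative. CPM came from TMM-scaled library sizes, and standard errors were taken as the absolute unshrunken log2 coefficient over the square root of F. The interaction was fitted over all 8 libraries on symbols equal in upper case. Floors of 3 counts cover counting error only. Mouse nuclear copies were found by exact 50-base and 100-base matches of GENCODE GRCm38 mitochondrial genes in nuclear transcripts and aligned with Biopython 1.88. No human genome was used. The test scripts were run beforehand on simulated counts with known changes.

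Named genes are the 13 mitochondrial genes, in each nuclear complex the 3 with the smallest p and the 2 with the highest mean CPM, the 4 with the smallest interaction p, and up to 3 per list; 1 gene that this rule takes is not reported here. Members and lists were chosen with earlier results of these data known. The alternatives were other scalings, no filter, DESeq2, a replicate block and leaving out each library.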

Additional observations from a re-analysis of the deposited data

Results flagged for a closer look

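COX2 and ND5 stood out because their changes differed between the experiments in the test of the difference itself (edgeR quasi-likelihood test over all 8 libraries). For COX2 the difference, the change with shANP32B in KU812 cells minus the change with Anp32b knockout in LSK cells, was 1.67 on the log2 scale (adjusted p = 0.0461), from 0.44 in KU812 and -1.21 in LSK cells. For ND5 it was 1.10 (adjusted p = 0.0476), from 0.48 in KU812 and -0.61 in LSK cells. The direction was shown by 2 of 2 KO libraries and 2 of 2 shANP32B libraries in both genes. Without the first WT library the LSK change was -0.58 for COX2 and -0.49 for ND5. Both calls depended on which libraries were kept, as given above. Mouse COX2 has exact nuclear copies over 99.5% of its 100-base windows and ND5 over 0%, and the part of such copies in the difference was not tested.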

How the results depend on the processing

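In LSK cells the mitochondrial median was negative under every setting run (-0.72 to -0.44 with 1 library left out) and in KU812 cells positive (0.20 to 0.61 without the first and without the second shNC library). Mitochondrial minus nuclear, it ran from -0.74 to -0.44 in LSK and from 0.30 to 0.55 in KU812 cells with 1 library left out. Nuclear medians ran from -0.052 to 0.095 in LSK and from -0.10 to 0.056 in KU812 cells with 1 library left out, and the KU812 one was 0.057 with library totals. In LSK cells DESeq2 called 2 mitochondrial genes, ND1 and ND5, both lower, and leaving out 1 library gave 0 to 10 mitochondrial calls (10 without the second WT library) and 0 to 2 nuclear calls. Without the 5 copied genes, a setting added after seeing the data, the median was -0.54 and 0 genes passed. In KU812 cells library totals alone gave 9 mitochondrial and 4 nuclear calls, and leaving out 1 library gave 6 to 12 mitochondrial and 1 to 7 nuclear calls. The interaction gave 4 calls with DESeq2's size factors, and 0 to 14 with 1 library left out (14 without the second WT library, 5 without the second shNC library, 4 without the first WT library). Over all genes, LSK calls numbered 0 with all libraries, 15 with DESeq2, 36 without the first WT library and 830 without the second. Library totals moved the median of all genes to 0.039 in LSK and 0.060 in KU812 cells.

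Same-numbered libraries share only a number in the labels, and their deviations correlated at -0.069 in LSK and 0.12 in KU812 cells (Pearson, over all genes tested). With a replicate block 0 mitochondrial members passed in LSK cells, where 15 of 14598 genes passed. In KU812 cells 11 mitochondrial and 7 nuclear members passed, where 4164 of 16529 genes passed, against 2741 without the block. In the interaction 2 members passed, where 285 of 10771 genes passed. The block moved ND5 of the interaction to 1.12 (adjusted p = 0.0525, edgeR).

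Several small values changed sign. With library totals Sdhb was 0.024, Sdhc 0.031, UQCRH 0.035 and UQCRC1 0.041. Sdha was -0.0013 with DESeq2's size factors and -0.0020 with its test, and NDUFV1 -0.0070 with no filter and -0.0037 with DESeq2. Leaving out 1 library gave -1.52 to 0.17 for ND4L, -0.62 to 1.20 for ND6 and -1.06 to 0.15 for ATP8 in LSK cells. It gave -0.16 to 0.0062 for Ndufa10, -0.26 to 0.077 for Sdhd, -0.091 to 0.042 for Sdhb, -0.12 to 0.092 for Sdhc, -0.16 to 0.19 for Sdha, -0.071 to 0.12 for Uqcrc1, -0.22 to 0.075 for Uqcrc2 and -0.0035 to 0.090 for Cox4i1. In KU812 cells it gave -0.14 to 0.28 for ND6, -0.079 to 0.34 for COX3, -0.038 to 0.022 for NDUFV1, -0.075 to 0.013 for UQCRH, -0.061 to 0.012 for UQCRC1 and -0.027 to 0.074 for COX4I1. The causes were not tested, except that leaving out a library leaves fewer samples. With 2 libraries per group the spread is poorly known, which limits every call.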

Other observations

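Of the genes on the lists related to the chain, the following had the smallest unadjusted p in LSK cells, and none passed the threshold. Genes outside these lists, some of the cell type markers among them, had smaller ones. Timm23, of the inner membrane import channel, stood at 26.3 and 28.7 CPM in KO and 17.0 and 19.1 CPM in WT cells (log2 fold change 0.61, adjusted p = 0.986, edgeR). Pink1 stood at 94.5 and 91.3 CPM in KO and 64.4 and 74.2 CPM in WT cells (0.42), and Sqstm1, an autophagy receptor, at 243 and 227 CPM in KO and 374 and 298 CPM in WT cells (-0.51). The groups overlap in none of these 3 genes. PINK1 was also the mitophagy gene that rose in KU812 cells, with 49.5 and 53.3 CPM with shANP32B and 34.3 and 32.0 CPM with shNC (0.63, adjusted p = 0.00613, edgeR).

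Ndufb4, a complex I accessory gene singled out after its values were seen, was read at 1.87 and 3.22 CPM in KO and 3.34 and 2.39 CPM in WT cells. In KU812 cells NDUFB4 was read at 31.3 and 35.7 CPM with shANP32B and 38.3 and 46.3 CPM with shNC.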
